A study of Mus musculus with 8 samples.

Results

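The insulin receptor and the genes that carry its signal to the FOXO transcription factors were followed in mouse liver after an injection of interleukin 1 beta (IL1B), a pro-inflammatory cytokine. The set held 10 genes chosen by name, from the receptor gene Insr through the docking protein genes Irs1 and Irs2 to Akt1, Akt2, Foxo1, Foxo3 and Foxo4, with the receptor-binding adaptor gene Grb10 and the pseudokinase gene Trib1. All 10 were measured among 22180 genes on Affymetrix MoGene 2.0 ST arrays, where each gene is the mean of its features with exactly 1 gene symbol. Both groups were adult male wild-type mice, bought at 7 weeks of age, given 2 weeks to settle and fed standard chow without restriction. In the PBS group 4 mice received the vehicle, in the IL1B group 4 mice received 0.5 µg of recombinant mouse IL1B each, both into the peritoneum, and the livers were taken 3 h later, 1 array per mouse. The strain label of the IL1B mice is C57BL/6 x CBA and that of the PBS mice C57BL/6J, while the description of the series gives C57BL/6J throughout, so the effects of strain and of IL1B cannot be told apart.

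Insulin binds its receptor, a tyrosine kinase on the hepatocyte surface, which phosphorylates the docking proteins IRS1 and IRS2. These recruit phosphoinositide 3-kinase, whose lipid product brings the AKT kinases to the membrane, and active AKT phosphorylates FOXO1, FOXO3 and FOXO4 so that they leave the nucleus. In the unfed liver nuclear FOXO1 drives genes of glucose output, and FOXO factors also act on Irs2 itself. Arrays measure the RNA of these genes and hold no measurement of phosphorylation or of where a protein sits.

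Values are given as log2 RMA values, a scale on which 1 unit is a doubling of signal, and levels of different genes are not set against each other because probes differ in brightness. A gene is called where limma, a linear model fitted across all 22180 genes, gave a Benjamini-Hochberg adjusted p of 0.05 or less. Foxo1 was called higher and Irs1 lower in the livers of IL1B mice, while the other 8 genes were not called. Thus 1 of the 10 was called higher, against 7.19% of all genes, and 1 lower, against 5.32% of all genes. Of the 8761 genes whose mean over the 8 arrays lay above the background level defined below, 15.8% were called higher and 9.39% lower, and of the 8 members in that set, without Irs1 and Grb10, 1 was called higher and 0 lower. Counts this small are not a result about the set. The groups did not overlap for 2 genes that were higher in IL1B, Foxo1 and Trib1 (9.81% of all genes), and for 2 that were lower, Irs1 and Grb10 (9.14% of all genes). The median difference over the 10 genes was 0.17, beside -0.06 over all genes.

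**Figure D1:**
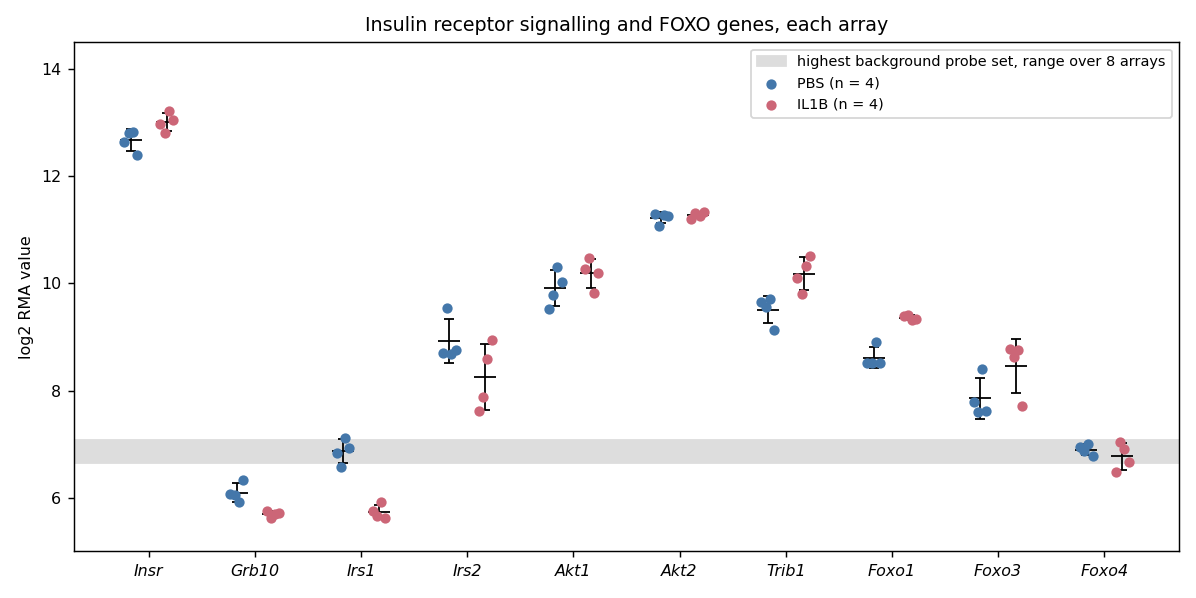
Log2 RMA value of each of the 10 genes (x axis) on each array, with PBS in blue, IL1B in red and bars for the mean and SD of 4 arrays. The grey band spans the highest background probe set of the 8 arrays, 6.65 to 7.08, and the groups stand apart for Foxo1, Trib1, Irs1 and Grb10.

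Background was read from 23 probe sets of the chip that match no mouse gene, the highest of which lay between 6.65 and 7.08 on the 8 arrays. At the level of the gene mean, 7 of the 10 genes were above it on every array, whereas 54.8% of all genes were below it on every array. Grb10 was below it on all 8 arrays and Foxo4 close to it. Liver identity was plain, since Alb was at the upper end of the scale on every array. Because whole liver was measured, fewer cells of a type and less RNA per cell cannot be told apart.

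The stretches before the transcription starts of Irs1, Irs2 and Foxo1 are shown because Irs1 and Foxo1 were the genes called and because Irs1 and Irs2 share a sequence feature there. RefSeq start windows of the build GRCm38.p6 were matched for 7 of the 10 genes, and the 250 bases before the start were searched on both strands for 6 motifs, the FOXO core GTAAACA, the insulin response sequence TGTTTTG, an NF-kB consensus (3 G, any 2 bases, 3 T, 2 C), TTCNNNGAA for STAT, TTGCNNAA for C/EBP and the E-box CACGTG. Capitals mark the matches, and each sequence is written 5′ to 3′ on the strand of the gene, both Irs genes lying on the minus strand and Foxo1 on the plus strand (Irs1 chr1:82291440-82291689, Irs2 chr8:11008930-11009179, Foxo1 chr3:52268087-52268336).
Irs1: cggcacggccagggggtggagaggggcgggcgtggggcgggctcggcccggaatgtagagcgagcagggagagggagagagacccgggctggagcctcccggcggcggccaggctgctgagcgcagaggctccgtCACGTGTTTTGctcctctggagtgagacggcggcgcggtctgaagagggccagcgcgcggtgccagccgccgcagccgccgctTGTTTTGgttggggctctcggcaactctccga
Irs2: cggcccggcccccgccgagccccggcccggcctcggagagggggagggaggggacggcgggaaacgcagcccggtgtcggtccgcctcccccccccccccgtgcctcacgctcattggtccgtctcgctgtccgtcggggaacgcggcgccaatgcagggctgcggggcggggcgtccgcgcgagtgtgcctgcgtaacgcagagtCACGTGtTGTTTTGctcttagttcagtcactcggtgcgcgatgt
Foxo1: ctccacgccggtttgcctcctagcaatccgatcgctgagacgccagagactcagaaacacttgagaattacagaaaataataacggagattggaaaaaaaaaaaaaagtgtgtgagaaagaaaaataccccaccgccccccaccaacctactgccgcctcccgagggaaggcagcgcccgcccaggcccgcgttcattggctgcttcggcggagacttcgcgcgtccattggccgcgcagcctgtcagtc

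Irs1 held TGTTTTG at 111 and at 32 bases before the start and CACGTG at 115 bases, the first TGTTTTG sharing 2 bases with the CACGTG. Irs2 held CACGTG at 44 bases and TGTTTTG at 37 bases, 1 base apart. Over all 32851 windows of the same length, 5.56% held TGTTTTG and 6.02% held CACGTG, and 97 windows (0.295%) held both anywhere. CACGTG followed within 10 bases by the start of TGTTTTG on the same strand was found in 3 windows of 3 genes, Irs1 and Irs2 among them, a pattern looked for after these sequences had been seen. The window of Foxo1 held none of the 6 motifs. GTAAACA occurred in 3.17% of all windows and, among the 7 genes, in 1 window of Akt1, on the other strand. TTCNNNGAA occurred in 7.02% and in 1 window of Akt2. The NF-kB consensus (1.41%) and TTGCNNAA (9.56%) occurred in none of these genes' windows. A match is a run of letters and no measurement of binding.

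Irs1 encodes the docking protein that links the insulin receptor to phosphoinositide 3-kinase. The gene value, the mean of 2 features, was 6.83, 6.58, 7.12 and 6.93 on PBS 1 to 4 and 5.75, 5.67, 5.92 and 5.63 on IL1B 1 to 4. All 4 IL1B arrays lay below the lowest PBS array, with a gap of 0.66. The difference was -1.12 ± 0.15 (SE, 95% interval -1.46 to -0.79, limma adjusted p = 0.0015), called whichever of the 8 arrays was omitted (-1.22 to -1.04). This mean of both features was above background on 2 PBS arrays and on 0 IL1B arrays, so its size is no measured fold, and the brighter feature alone was measured in both groups.

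The 2 Irs1 features differed in how much signal they carried. The brighter was 8.36, 8.04, 8.997 and 8.53 in PBS and 7.20, 6.85, 7.25 and 7.04 in IL1B, above background on all 8 arrays. In a fit over 23521 features its difference was -1.39 ± 0.20 (limma adjusted p = 0.0026). The dimmer one was below background on every array, and where genes with a mean below 6.73 were left out of the test Irs1 was among them.

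Irs2, the docking protein gene that insulin represses and fasting induces in liver, was 8.71, 9.54, 8.69 and 8.76 in PBS and 7.63, 7.87, 8.60 and 8.95 in IL1B. IL1B 1, IL1B 2 and IL1B 3 were below every PBS array, while IL1B 4 was above the PBS mean of 8.92. The difference of -0.66 ± 0.31 (95% interval -1.37 to 0.04) was not called (limma adjusted p = 0.213), nor without IL1B 4 (-0.89) or without IL1B 1 (-0.45). The level of Irs2 minus that of Irs1 shifted by 0.46 between the groups, which overlapped (exact permutation test, two-sided, p = 0.257, 0.428 after Benjamini-Hochberg adjustment over the 5 pairs of related genes compared). With the brighter Irs1 feature alone the shift was 0.73, without PBS 2 it was 0.76 and without IL1B 4 it was 0.20, none of them past the threshold (exact p = 0.2, 0.0571 and 0.571). Without PBS 2 the groups separated fully, so that p could not have been smaller in this direction. With 4 and 4 arrays the test gives no p below 0.0286, and a single pair at that p cannot pass after adjustment over the 5 pairs. Irs1 was thus called and Irs2 was not, but their differences were not shown to differ, by a test with little room to show it.

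Insr, the receptor gene, was 12.64, 12.81, 12.83 and 12.39 in PBS and 12.98, 12.81, 13.21 and 13.06 in IL1B. The IL1B arrays were above the highest PBS array in 3 of 4 cases, and IL1B 2 equalled PBS 2 to the second decimal. The difference was 0.35 ± 0.15 (95% interval 0.01 to 0.68) with an adjusted p of 0.176 in limma, not called.

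Grb10, whose protein binds the activated receptor and dampens it, lay at 6.07, 6.06, 5.93 and 6.33 in PBS and at 5.76, 5.62, 5.69 and 5.71 in IL1B. The groups did not overlap, yet all 8 values were below background, so no fold is given, and it was not called (limma adjusted p = 0.0752).

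The AKT kinases phosphorylate FOXO proteins, and AKT2 is the form best known for insulin action on glucose. Akt1 was 9.52, 9.78, 10.30 and 10.02 in PBS and 10.27, 10.47, 9.82 and 10.20 in IL1B, overlapping groups with a difference of 0.28 ± 0.20 (limma adjusted p = 0.419). Akt2 was 11.29, 11.08, 11.28 and 11.26 in PBS and 11.21, 11.32, 11.26 and 11.32 in IL1B, overlapping as well. Its 95% interval, -0.21 to 0.31, was the narrowest of the 10 genes, and its sign turned after quantile normalization (0.05 against -0.11). Akt2 minus Akt1 shifted by -0.23 (exact permutation test, two-sided, p = 0.343, adjusted 0.429), with overlapping groups.

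Foxo1 encodes the FOXO factor of the liver that drives gluconeogenic genes when insulin is low. The gene value was 8.52, 8.52, 8.91 and 8.52 in PBS and 9.38, 9.41, 9.32 and 9.33 in IL1B. The 4 IL1B arrays lay within 0.09 of each other and 0.41 or more above every PBS array, of which PBS 3 was the highest. The difference was 0.74 ± 0.13 (95% interval 0.44 to 1.04, limma adjusted p = 0.00692), called whichever of the 8 arrays was omitted (0.71 to 0.84). This is a ratio of 1.67 for the mean of 2 features, the dimmer of which was above background on only 2 PBS arrays.

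Both Foxo1 features were higher on average in IL1B. The brighter, above background on all 8 arrays, was 10.36, 10.64, 10.62 and 10.26 in PBS and 11.62, 11.48, 11.41 and 11.27 in IL1B, a difference of 0.98 ± 0.14 (limma over features, adjusted p = 0.00267). PBS 3 did not stand apart there. The dimmer was 6.68, 6.41, 7.20 and 6.78 in PBS and 7.15, 7.33, 7.23 and 7.39 in IL1B, above background on 2 PBS and 4 IL1B arrays, with 0.51 ± 0.18 (adjusted p = 0.0959), and PBS 3 was the highest of its group on it.

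Foxo3, a FOXO factor with many shared target genes, was 7.78, 7.61, 8.41 and 7.62 in PBS and 8.78, 8.62, 8.75 and 7.72 in IL1B. IL1B 1, IL1B 2 and IL1B 3 were above every PBS array, and IL1B 4 lay within the PBS range. The difference of 0.61 ± 0.27 (95% interval -0.00 to 1.23, limma adjusted p = 0.187) was not called, but without IL1B 4 it was 0.86 and called (adjusted p = 0.0371). Foxo4, a further member of the family, was 6.95, 6.87, 7.01 and 6.77 in PBS and 6.48, 7.04, 6.91 and 6.66 in IL1B, above background on 3 PBS and 2 IL1B arrays, with a difference of -0.12 ± 0.15 (adjusted p = 0.657).

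Set against each other within each array, the FOXO genes gave groups that did not overlap in 1 pair, Foxo1 minus Foxo4. Foxo4 was close to background, above it on 3 PBS and 2 IL1B arrays, so a shift against it need not show an unequal response. Foxo1 minus Foxo4 was 1.57, 1.66, 1.90 and 1.75 in PBS and 2.90, 2.36, 2.41 and 2.67 in IL1B. The groups did not overlap, and the shift of 0.87 reached the smallest p that 70 assignments of 4 and 4 arrays allow (exact permutation test, two-sided, p = 0.0286), but 0.143 after adjustment over the 5 pairs. Foxo3 minus Foxo4 shifted by 0.74 (exact p = 0.0571, adjusted 0.143) and Foxo1 minus Foxo3 by 0.13 (exact p = 0.829), so that Foxo1 and Foxo3 were not shown to differ in their response. Without IL1B 4 the latter shift was -0.11.

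Trib1, a pseudokinase that brings substrates to the ubiquitin ligase COP1 and is known in liver for its part in lipid metabolism, was 9.65, 9.55, 9.71 and 9.14 in PBS and 10.09, 9.79, 10.33 and 10.52 in IL1B. All 4 IL1B arrays were above every PBS array, by a gap of 0.08. The difference of 0.67 ± 0.19 (95% interval 0.24 to 1.11) missed the threshold narrowly (limma adjusted p = 0.0515). Trib1 was called in 1 of the 8 fits with an array omitted (0.55 to 0.80), that without IL1B 2 (adjusted p = 0.0290). It was also called with dim genes left out (limma adjusted p = 0.0292), with trend and robust settings (0.047) and with array weights (0.0364). After quantile normalization it was 0.52 and not called (limma adjusted p = 0.097), nor was it when replicate numbers were treated as blocks (0.0927). Cop1, the gene of the ligase, singled out after its value had been seen, was at 0.02 ± 0.12 (adjusted p = 0.928). At an adjusted p of 0.15, the looser level of the study's methods, Trib1 joined Foxo1 as higher and Grb10 joined Irs1 as lower, 2 genes each, against 11.9% of all genes higher and 11.7% lower at that level.

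**Figure D2:**
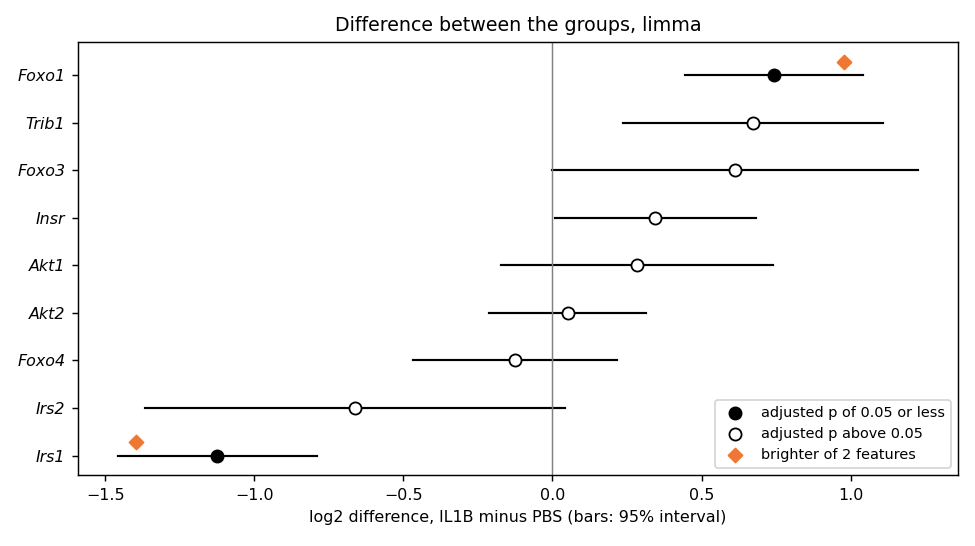
Log2 difference, IL1B minus PBS, of 9 genes (y axis) with 95% intervals from limma, filled where the adjusted p was 0.05 or less, and diamonds for the brighter of the 2 features of Irs1 and Foxo1. Grb10 is left out because it was below background on all arrays. The point of Irs1 is no measured fold, as its mean was above background on 2 PBS and 0 IL1B arrays. The intervals are not adjusted for the number of genes, and those of Irs1, Foxo1, Trib1 and Insr do not reach 0.

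The arrays differed in the signal of markers of other cells, and these values are set beside those of the members. The summed signal of 8 neutrophil markers (log2 of the sum) was between 8.01 and 8.74 in PBS, 14.78 on IL1B 1, 15.27 on IL1B 2, 11.09 on IL1B 3 and 10.82 on IL1B 4, and 7 of the 8 genes were called higher. The sum of 6 monocyte markers was between 11.09 and 12.93 in PBS, 14.96 and 15.94 on IL1B 1 and 2, and 12.14 and 12.20 on IL1B 3 and 4, with 3 called higher. For 5 of these markers all 4 IL1B arrays were above every PBS array. Lyz2, the one that overlapped, makes up most of the PBS sums, with PBS values of 10.92 to 12.82. The sum of 8 Kupffer cell markers, of which none was called, was between 13.33 and 14.49 in PBS, 16.61 and 15.75 on IL1B 1 and 2, and 13.64 and 13.09 on IL1B 3 and 4.

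Irs2 was lowest on IL1B 1 and IL1B 2, the arrays with the highest neutrophil, monocyte and Kupffer cell sums, at 8.60 on IL1B 3, just below the lowest PBS array (8.69), and inside the PBS range on IL1B 4. Irs1 was low and Foxo1 high on all 4 IL1B arrays. Foxo3 was low on IL1B 4, which had the lowest neutrophil sum of the IL1B arrays, but high on IL1B 3, whose sum was close to it. The part of these cells in the values of the members was not tested. Markers of the other liver cells moved in both directions. Of 8 sinusoidal endothelial cell markers 2 were called higher, Lyve1 (3.18 ± 0.63) and Cdh5 (1.07 ± 0.24), and 3 lower, Kdr (-2.47 ± 0.21), Tek (-1.25 ± 0.17) and Clec4g (-0.74 ± 0.15), with sums of 14.92 to 15.14 in PBS and 14.98 to 15.53 in IL1B. Of 8 stellate cell markers 0 were called higher and 2 lower, Lrat (-0.88 ± 0.18) and Colec11 (-1.07 ± 0.18), with sums of 16.26 to 16.59 over both groups. Of 10 hepatocyte markers 1 was called, Hnf4a, higher by 1.25 ± 0.15, and of 5 cholangiocyte markers 1, Sox9, higher by 0.92 ± 0.21. None of the adipocyte or pancreas markers was called, but their sums differed between arrays. Pancreas markers summed to 9.61 on PBS 1 and to between 7.01 and 7.37 on the other arrays. Adipocyte markers, 3 of the 4 below background on every array, summed to between 7.63 and 8.01 in PBS and to 9.45, 7.52, 9.49 and 9.99 on IL1B 1 to 4. The part of all these cells in the values of the members was not tested either. Hepatocyte markers summed to between 22.64 and 22.72 on all arrays, several being at the upper end of the scale, and all 8 measured lymphocyte markers were below background on every array.

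**Figure D3:**
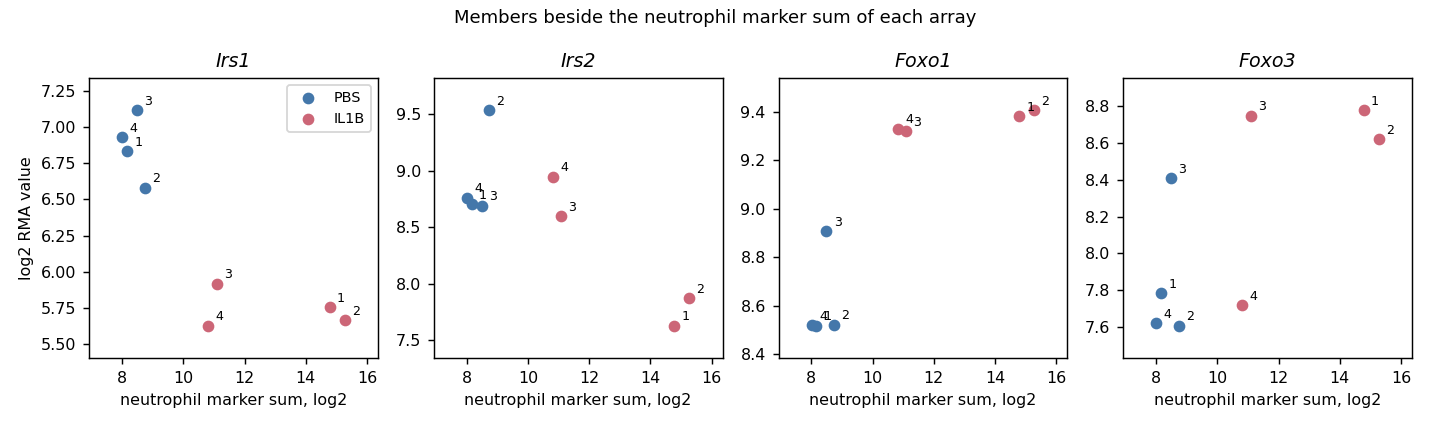
Log2 RMA value of Irs1, Irs2, Foxo1 and Foxo3 (y axes, each with its own range) against the log2 of the summed signal of 8 neutrophil markers (x axis), 1 point per array with its number. Irs2 is lowest on the IL1B arrays with the largest sums, 14.78 and 15.27. Irs1 and Foxo1 differ from PBS on all 4 IL1B arrays, and the sum is above PBS on all 4 as well (10.82 or more, against 8.74 or less). The part of these cells was not tested.

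The rest of the pathway was read from 9 lists holding 147 further genes, 135 of them measured, of which 21 were called higher, 16 lower and 98 not, with a median difference of -0.01. Of the 111 above background on average, 18 were called higher and 15 lower, beside the 15.8% and 9.39% given above for all such genes. That filter uses the mean of both groups, so it also admitted genes such as Ddit4, Socs3 and Ptpn1, whose PBS means were below it. The counts of each list below stand beside 7.19% of all genes called higher and 5.32% lower, and are too small to be a result about a list. Of the 26 genes that the rule took from these lists as examples, 18 kept their call whichever of the 8 arrays was omitted.

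Of 18 receptor, adaptor and docking genes, 3 were called higher and 2 lower. Cbl, a ubiquitin ligase gene that acts on activated receptors, rose by 1.34 ± 0.23 (limma adjusted p = 0.00618) and Grb2, an adaptor of the RAS branch, by 0.91 ± 0.19 (adjusted p = 0.015). Gab1, a docking protein gene related in function to the Irs genes, fell by 0.94 (SE 0.17, adjusted p = 0.00655). Grb14, an inhibitor of the receptor like Grb10, was lower by 1.07 (SE 0.26). Omitting PBS 1, PBS 2, PBS 3 or IL1B 1 left it no longer called, with differences from -1.23 to -0.82 over the 8 omissions. Igf1r was called but was below background in both groups, so no fold is given.

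Among 12 genes of phosphoinositide 3-kinase, its lipid phosphatases and PDK1, 3 were called higher and 1 lower. Pik3r1, the main regulatory subunit gene, was higher by 0.96 ± 0.23 but was no longer called when any of PBS 2, PBS 3, IL1B 1, IL1B 3 and IL1B 4 was omitted (0.84 to 1.11), while the catalytic subunit gene Pik3ca was at 0.14 ± 0.12 and Pdpk1, the kinase gene upstream of AKT, at -0.01 ± 0.12, both added after their values had been seen. Inpp5k, an inositol phosphatase gene, fell by 0.85 (SE 0.12, limma adjusted p = 0.0023). The other 2 called genes, Pik3cd and Inpp5d, best known from blood cells, were below background in all PBS livers and give no bound above 0.

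Among 10 genes of AKT regulation none was called higher and 3 lower. Phlpp1, a phosphatase gene whose product removes phosphate from AKT, fell by 1.27 (SE 0.16, limma adjusted p = 0.00134) and Them4 by 1.25 (SE 0.25, adjusted p = 0.0123). The remaining called gene, Prr5, was above background on 1 PBS array and 0 IL1B arrays, so no fold is given. Of 13 genes of the mTORC1 branch 1 was higher, Ddit4, an inhibitor of mTORC1, which was below background in PBS and at least 3.23 log2 units higher in IL1B (adjusted p = 0.00152), its IL1B arrays ranging from 7.86 to 12.19. Deptor fell by 0.98 (SE 0.19, adjusted p = 0.0107), and Mtor was lower by 0.83 (SE 0.20), which was not called with any of PBS 1, PBS 3, PBS 4 and IL1B 1 omitted (-0.95 to -0.65).

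The 15 measured brakes on insulin signalling had 4 genes called higher and 0 lower, beside 7.19% and 5.32% of all genes. All 4 were among the 12 above background on average. Socs3 and Ptpn1 met that filter only through their IL1B arrays, with PBS means of 5.95 and 6.70 under the cut of 6.73. The filtered count is therefore not set against a share of genes. Ptpn1, the tyrosine phosphatase gene PTP1B that acts on the insulin receptor, had PBS values of 6.35 to 6.99 and IL1B values of 8.82 to 9.67, with a fitted difference of 2.46 ± 0.21 (limma adjusted p = 0.000133), though only 1 of the 4 PBS arrays was above background, against all 4 IL1B arrays. Socs3, whose product binds the receptor and IRS proteins in cytokine-treated cells, was below background in PBS and at least 0.85 log2 units higher in IL1B (adjusted p = 0.00153). The other two, named after their values had been seen, were the phosphatase gene Ptpn2 (1.66 ± 0.20, adjusted p = 0.00102) and the IkB kinase gene Ikbkb (0.88 ± 0.14, adjusted p = 0.00397). All 4 stayed called whichever array was omitted.

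Of 20 FOXO family and FOXO regulator genes 4 were called higher and 1 lower. Sgk1, a kinase gene whose product phosphorylates FOXO3 at sites like those of AKT, rose by 2.09 ± 0.27 (limma adjusted p = 0.00136), and Mdm2, a ubiquitin ligase gene, by 1.01 ± 0.20 (adjusted p = 0.0123). The acetyltransferase genes Ep300 (0.80 ± 0.16) and Crebbp (0.63 ± 0.12), named after their values had been seen, were the others called higher. Sgk2, a relative of Sgk1, was lower by 1.64 (SE 0.37), not called with PBS 3 or with IL1B 1 omitted (-1.97 to -1.34).

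Genes known as FOXO targets in liver were called in both directions, 4 of 27 higher and 4 lower, with a median difference of 0.00. Of the 24 above background on average, 4 were called higher and 4 lower, beside 15.8% and 9.39% of all such genes. Cdkn1a, the cell cycle inhibitor p21, had PBS values of 9.85 to 10.53 and IL1B values of 14.02 to 14.85, a rise of 4.30 ± 0.22 (limma adjusted p = 8.56e-06). Klf15, a transcription factor gene of amino acid use, rose by 1.54 ± 0.32 (adjusted p = 0.0129), and Sod2 and Map1lc3b were the others higher (Sod2, Map1lc3b, Gabarapl1 and Sesn3 were named after their values had been seen). Txnip, an inhibitor of glucose uptake, fell by 2.71 (SE 0.28, adjusted p = 0.000413) and Abca6 by 0.89 (SE 0.18, adjusted p = 0.0136), with Gabarapl1 and Sesn3 also called lower, Sesn3 (-0.82 ± 0.23) in only 2 of the 8 fits with an array omitted (-0.96 to -0.63) and not after median centring (adjusted p = 0.0596).

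The textbook targets of hepatic FOXO1 Igfbp1, G6pc and Pck1, the latter 2 of glucose output, were not called in the main comparison. They were singled out here after their values had been seen. Igfbp1, an insulin-repressed binding protein gene, had PBS values from 13.27 to 16.76 and IL1B values from 13.30 to 16.40, a difference of 0.85 ± 0.85 (limma adjusted p = 0.581). G6pc, the glucose 6-phosphatase gene, had PBS values of 17.94 to 19.02 and IL1B values of 15.40 to 17.62, groups that did not overlap, at -1.51 ± 0.47 (adjusted p = 0.0686). It was called with dim genes left out of the test (limma adjusted p = 0.0459) and when replicate number entered as a block (0.0201). After quantile normalization it was not called (0.0582), and it was called in 0 of the 8 fits with an array omitted (-1.75 to -1.01). Pck1 was at 0.01 ± 0.18 (adjusted p = 0.978).

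Genes that insulin induces in liver were called higher in 2 of 15 cases and lower in 1. Thrsp, a regulator of fatty acid synthesis, rose by 2.45 ± 0.47 (limma adjusted p = 0.00931), and Elovl6, a fatty acid elongase gene, was higher by 1.51 ± 0.34, a call lost without IL1B 1 or IL1B 3 (1.24 to 1.80). Gpam, the first enzyme gene of triglyceride assembly, was lower by 1.30 (SE 0.33), not called when any of PBS 1 to 3, IL1B 1 and IL1B 2 was omitted (-1.57 to -1.02). Srebf1 (-1.19 ± 0.42, adjusted p = 0.0978) and the glycogen synthase gene Gys2 (-1.51 ± 0.43, adjusted p = 0.0512), both singled out after their values had been seen, were not called, Srebf1 being called without IL1B 4 (-1.52) and Gys2 without IL1B 3 or IL1B 4 (-1.82 to -1.09 over the 8 fits). Gys2 was also called after quantile normalization (0.0442), with dim genes left out (0.0344), with trend and robust settings (0.0472) and with the replicate block (0.0351), under which Gpam (0.0657) lost its call. Of 5 genes of insulin supply and hormone balance 2 were lower, the binding protein gene Igfbp2 by 2.56 (SE 0.40, adjusted p = 0.00326) and the glucagon receptor gene Gcgr by 0.69 (SE 0.18), the latter call kept in 2 of the 8 fits with an array omitted (-0.84 to -0.61) and lost with the replicate block (0.0542).

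**Figure D4:**
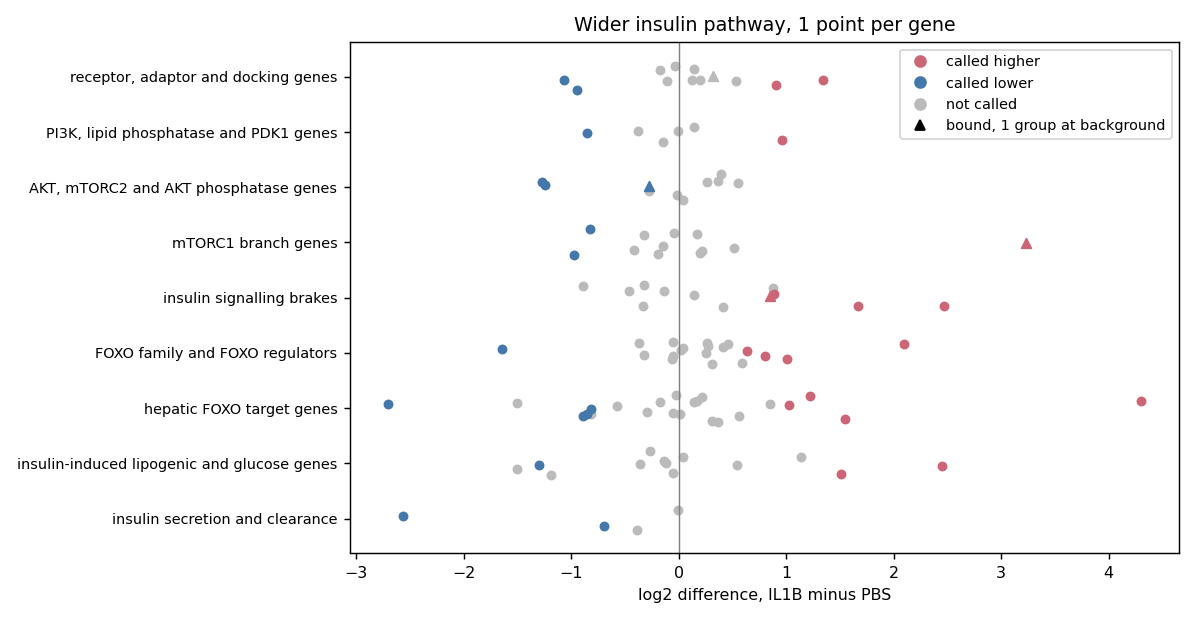
Log2 difference, IL1B minus PBS (x axis), of the further pathway genes by list (y axis), 107 points for genes measured in both groups and 4 triangles for bounds where 1 group was below background. Red marks genes called higher, blue called lower and grey not called. The largest differences among the points are those of Cdkn1a (4.30) and Txnip (-2.71).

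Across the 8 arrays, the genes whose values followed those of Foxo1 most closely were Sec24d (Pearson r = 0.99), Trim8 (0.99) and Spint2 (0.99) among 8532 genes above background in at least 1 group, 156 of which had r above 0.95. For Irs1 they were Pbld1 (0.99), Ilrun (0.99) and Msrb1 (0.98), with 91 genes above 0.95. The 8 arrays share the contrast between the groups, which sets most of such a likeness, and it is given as a description.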

How the data were processed

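RNA from 8 livers was hybridized to MoGene 2.0 ST arrays. The authors deposited log2 RMA values, made with Affymetrix Power Tools in the Galaxy tool GIANT (version not given in the sources used here), with background correction, quantile normalization and probe set summary. Of 41345 features, 23521 had exactly 1 gene symbol in the platform annotation, 1820 had several and 16004 none. Those with 1 were averaged per symbol to 22180 genes. No column of per-sample values was left without a sample (0 unused). At most 0.341% of values were equal between any pair of arrays.

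limma 3.58.1 in R 4.3.3 (lmFit and eBayes) compared 4 IL1B with 4 PBS arrays, with Benjamini-Hochberg adjustment over all genes. Differences between related genes were tested by exact permutation over arrays. Each mouse is 1 array, so p-values cover the spread between mice; arrays limit the precision by their number. Where 1 group was below the highest background probe set, a bound was computed against it.

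The 10 genes, the lists, the markers and the tests were chosen with earlier results of these data known. Named genes are the members, the 2 highest and 2 lowest called genes of each list, and the 3 genes most like Foxo1 and Irs1. A further 16 list genes were named after their values had been seen, as were single genes behind small counts and the markers. Of 147 list genes, 12 had no value here. The fit was repeated with each array omitted, with the replicate number as a block, with array weights, with trend and robust settings, at other thresholds, after quantile normalization or median centring, on the brightest feature of each gene, and without dim genes. Leaving out features below background was added after seeing the data.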

Additional observations from a re-analysis of the deposited data

Results flagged for a closer look

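In 4 of the 20 groups formed by the 10 genes and the PBS and IL1B arrays, 1 array stood apart from the other 3 by Dixon's criterion, which chance meets in about 1 in 20 groups. Irs2 was 9.54 on PBS 2, where the other PBS arrays lay between 8.69 and 8.76. Akt2 was 11.08 on PBS 2, beside 11.26 to 11.29 on the others. Foxo1 was 8.91 on PBS 3, beside 8.52 on the others, and PBS 3 was also the highest PBS array on the dimmer of its features. Foxo3 was 7.72 on IL1B 4, beside 8.62 to 8.78 on the other IL1B arrays, and it is the array whose omission brings Foxo3 past the threshold. PBS 3 was the highest PBS array for 7 of the 10 genes, compared with 26.5% of all genes.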

How the results depend on the processing

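Foxo1 and Irs1 kept direction and call under every alternative run that tested them. With genes of mean under 6.73 left out, neither Irs1 nor Grb10 was tested, so 0 members were called lower. Trib1 joined Foxo1, giving 2 members called higher, under that filter, with limma's trend and robust settings and with array weights. At an adjusted p of 0.15 there were 2 higher and 2 lower. The count of all genes called was 2773, with 5226 at 0.15, 1128 at 0.01 and 1759 to 2409 with 1 array left out (1759 without PBS 1 and 1769 without IL1B 1). In those fits 1 to 2 members were called higher, Trib1 being added without IL1B 2 and Foxo3 without IL1B 4, and 1 lower. Quantile normalization turned the sign of Akt2 (-0.11), and leaving out IL1B 4 that of the shift of Foxo1 minus Foxo3 (-0.11 to 0.24 with 1 array left out).

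Arrays with the same number are not stated to be paired, and their residuals correlated by -0.07, 0.22, 0.05 and 0.12, with 5 of 8 arrays closest to their own number. With the replicate number as a block, 2562 genes were called, 1 member higher and 1 lower. Signal limits Irs1, Foxo4 and Grb10, which lie near or below background, and values at the ceiling of the scale hold no order.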
